A study of Drosophila melanogaster with 18 samples.

Results

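The 8 genes described here make, load and sense GABA, the main inhibitory transmitter of the fly brain. They are Gad1, VGAT, Rdl, Grd, Lcch3, GABA-B-R1, GABA-B-R2 and GABA-B-R3, taken by name from the 17559 genes of an expression table of 18 single fly heads, and all 8 were found. None of them was called as different between starved Drosophila melanogaster that met an odor alone (odor, labelled naive) and starved flies that learned the odor together with sorbose (sorbose) or sucrose (sucrose). Each group had 6 flies. Trained flies were taken 4 h after training, whereas the labels give the odor flies no collection time. Sucrose is a sugar with food value, and sorbose tastes sweet to flies but does not feed them. The study used sorbose as a control for long-term memory, which this sugar supports only weakly, so the sugars differ in more than nutrition. It also trained flies with sucrose in separate experiments a month apart. The study compares sucrose and sorbose with odor alone in the first of these, and sucrose with untrained or starved flies in the second. In kind the 3 groups here match the first, although the labels name neither experiment nor batch, and a batch was not tested. The head counts in the study's methods list no odor-only group and give its sucrose sets at 4 h unequal sizes. They do not say which set was trained beside sorbose, so the match is not certain. The study describes the heads as those of females deprived of food before training. The strain and age of these flies are not given in the sources used here, and all 3 groups were starved.

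GABA is made from glutamate in inhibitory neurons, packed into synaptic vesicles and released onto fast chloride channels and slower G protein-coupled receptors. In the fly brain it keeps the odor responses of the mushroom body, the center of olfactory memory, sparse, and Rdl in mushroom body neurons is known to limit olfactory learning. Whole heads hold the brain together with eyes, muscle, fat body and cuticle, so a change in a small set of neurons would be diluted here.

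The library sizes recovered from the deposited values were 45.8 to 77.2 M reads (M, 1000000). The 8 genes were covered by 1423 reads or more in every fly, so that counting error was at most 2.65% of a value, for Grd in the fly with its fewest reads. Head tissue was represented as labelled. The summed RPKM (reads per kilobase of gene and per M mapped reads) of the 5 photoreceptor genes ninaE, ninaC, trp, norpA and Arr2 was at least 13377, and that of the 5 pan-neuronal genes elav, nSyb, Syt1, brp and Syx1A was 486.6 to 615.2. The pan-neuronal sum was 517.5 to 605.9 in odor, 515.3 to 615.2 in sorbose and 486.6 to 569.4 in sucrose flies. Of these 5 genes 0 were called in any comparison (limma, lowest adjusted p = 0.212). The shares of all tested genes were 27.5% for sucrose minus odor, 24.4% for sorbose minus odor and 0.00904% for sucrose minus sorbose. The fat body sum was less even, with 2983 to 8236 in odor and 5954 to 23400 in sucrose flies.

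Gad1 encodes the glutamic acid decarboxylase that makes GABA in neurons (FBgn0004516; dm6 chromosome 3L, 4074077 to 4088744, minus strand). It had the highest level of the 8 genes. Odor flies had from 148.5 to 186.6 RPKM with a median of 155.6. Sorbose flies spread from 130.9 to 201.8 with a median of 147.5, and sucrose flies lay closer together at 151.6 to 169.7 with a median of 159.6. The sucrose range lay within both others. Sorbose replicate 2 held the highest value of all 18 flies and sorbose replicate 3 the lowest. On the log2(RPKM + 0.5) scale, used for all differences here, Gad1 differed from odor by 0.0054 ± 0.086 in sucrose (SE, limma adjusted p = 0.974) and by -0.058 ± 0.086 in sorbose flies (limma adjusted p = 0.664). Without sorbose replicate 2 the latter was -0.14 (limma adjusted p = 0.118), and sucrose minus sorbose moved from 0.064 to 0.14 (limma adjusted p = 0.332).

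VGAT is the vesicular transporter that loads GABA into synaptic vesicles (FBgn0033911; dm6 chromosome 2R, 14198478 to 14201249, minus strand). Its RPKM was 23.2 to 30.2 in odor flies with a median of 27.0. It was 24.8 to 33.4 in sorbose flies with a median of 26.2, and 25.7 to 29.6 in sucrose flies with a median of 27.4. All 3 ranges overlapped, and sorbose replicate 2 was again the highest fly. Its log2 difference from odor was 0.025 ± 0.071 in sucrose (limma adjusted p = 0.833) and 0.021 ± 0.071 in sorbose flies (limma adjusted p = 0.867). Within a fly Gad1 stood 5.28 to 6.81 times above VGAT in RPKM, with a mean ratio of 5.93 ± 0.480 for odor, 5.60 ± 0.294 for sorbose and 5.84 ± 0.276 for sucrose (SD over 6 flies).

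**Figure D1:**
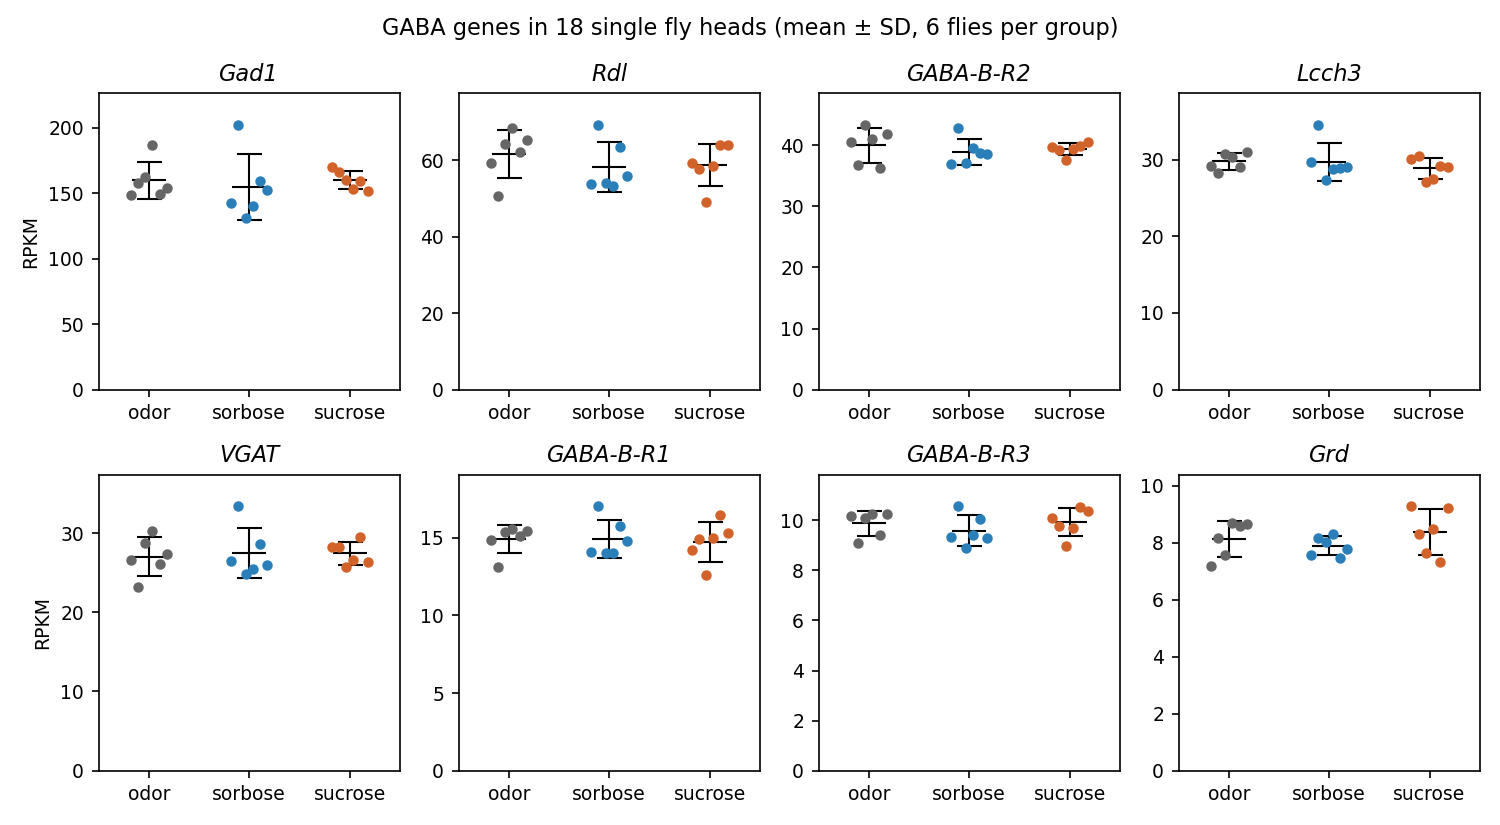
RPKM of the 8 GABA genes in each of 18 fly heads, one panel per gene, with the y axis starting at 0. Points are flies, and bars give the mean and SD of 6 flies. The 3 groups overlap in every panel, and sorbose replicate 2 is the highest point for Gad1 (201.8), Rdl (69.2), Lcch3 (34.5), VGAT (33.4), GABA-B-R1 (17.0) and GABA-B-R3 (10.6).

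The ionotropic receptors are channels built from subunits of the Cys-loop family. Rdl is the principal subunit, forms GABA-gated chloride channels on its own and is the target of the insecticide dieldrin (FBgn0004244; dm6 chromosome 3L, 9145838 to 9182149, minus strand). Odor flies had 50.7 to 68.6 RPKM of Rdl with a median of 63.3, sorbose flies 53.3 to 69.2 with a median of 54.9, and sucrose flies 48.97 to 64.0 with a median of 58.9. Both trained medians were below that of odor, but the ranges overlapped almost whole. The lowest fly, sucrose replicate 3, belonged to the same group as flies at 64.0. The log2 difference from odor was -0.071 ± 0.085 in sucrose (limma adjusted p = 0.575) and -0.084 ± 0.085 in sorbose flies (limma adjusted p = 0.507). Over fits without 1 fly these ran from -0.13 to -0.020 and from -0.14 to -0.052.

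Lcch3 and Grd encode further subunits of the family, and together they can form a GABA-gated channel when expressed in frog oocytes. Lcch3 (FBgn0010240; dm6 chromosome X, 15925105 to 15928529, plus strand) had 28.2 to 30.97 RPKM in odor flies, 27.3 to 34.5 after sorbose and 27.1 to 30.5 after sucrose, with medians of 29.8, 28.98 and 29.1. Without the top sorbose fly the sorbose values ended at 29.7, within the odor range at that end. Grd (FBgn0001134; dm6 chromosome 3L, 17823333 to 17839767, plus strand) was the lowest of the 8 genes. Odor flies had 7.20 to 8.71 RPKM of it, sorbose flies 7.46 to 8.31 and sucrose flies 7.32 to 9.28, with medians of 8.38, 7.91 and 8.39. The sorbose range lay inside the other two. Sucrose flies differed from sorbose flies by 0.077 ± 0.060 (log2) in Grd (limma adjusted p = 0.740), and by -0.037 ± 0.050 in Lcch3 (limma adjusted p = 0.880).

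Values of Grd and Lcch3 are less certain than the others because the libraries do not keep strand. Exons of CG5577 on the opposite strand cover 1118 bases, or 27.5%, of Grd, and CG5577 had a mean of 21.1 RPKM. Ranbp16 (24.8 RPKM) shares 456 bases (24.0%) of Lcch3 on the opposite strand, and asRNA:CR45000 (28.4 RPKM) shares 140 bases (7.36%). Reads of such stretches cannot be assigned to one gene. None of the 3 neighbours was called in a comparison (limma, lowest adjusted p = 0.199). The other 6 genes share no exonic base with another gene of the annotation.

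GABA-B receptors are metabotropic, acting through G proteins. GABA-B-R1 and GABA-B-R2 work as a pair, in which the first binds the ligand and the second couples to the G protein, and GABA-B-R3 is an insect-specific relative of uncertain function. GABA-B-R2 (FBgn0027575; dm6 chromosome 3R, 21770333 to 21775840, minus strand) had 36.3 to 43.3 RPKM in odor flies with a median of 40.8. It had 36.9 to 42.8 in sorbose flies with a median of 38.7, and 37.6 to 40.5 in sucrose flies with a median of 39.6. GABA-B-R1 (FBgn0260446; dm6 chromosome 2L, 15016331 to 15034704, plus strand) had 13.1 to 15.6, 13.99 to 17.0 and 12.6 to 16.5 RPKM in odor, sorbose and sucrose flies, with medians of 15.3, 14.5 and 14.9. GABA-B-R3 (FBgn0031275; dm6 chromosome 2L, 749945 to 762399, plus strand) had 9.08 to 10.3, 8.88 to 10.6 and 8.98 to 10.5 RPKM, with medians of 10.1, 9.38 and 9.93. Each of the 3 genes overlapped between all groups. Their log2 differences ran from -0.041 for GABA-B-R3 between sorbose and odor to 0.046 for GABA-B-R3 between sucrose and sorbose (limma adjusted p = 0.577 and 0.825). The RPKM of GABA-B-R2 was 2.40 to 2.99 times that of its partner GABA-B-R1 within a fly, with mean ratios of 2.68 ± 0.154 for odor, 2.61 ± 0.123 for sorbose and 2.69 ± 0.191 for sucrose (SD over 6 flies).

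The study sought transcripts that change with long-term memory, with odor alone and sorbose as controls. Of the 8 GABA genes 0 were called between sucrose and odor, where 27.5% of the 11062 tested genes were called at a limma adjusted p under 0.05. Between sorbose and odor 0 of 8 were called, against 24.4% of all tested genes, and between sucrose and sorbose 0 of 8, against 0.00904%. At an unadjusted p under 0.05 the count was 0 of 8 in each comparison, against 39.2%, 37.3% and 9.96% of all tested genes, and limma-voom on recovered reads also called 0 in each. The absolute log2 differences of the 8 genes had a median of 0.022 for sucrose minus odor and 0.038 for sorbose minus odor, beside 0.13 for all tested genes in both comparisons. Both comparisons with odor share the same 6 odor flies.

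The 95% confidence intervals of the 8 genes reached from 0.841-fold to 1.14-fold between sucrose and odor, and from 0.834-fold to 1.13-fold between sorbose and odor. Between the sugars they reached from 0.892-fold to 1.18-fold. Rdl and Gad1 had the widest intervals, with SE of 0.085 and 0.086 on the log2 scale, and GABA-B-R2 the narrowest with 0.047. Differences within these intervals remain possible.

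**Figure D2:**
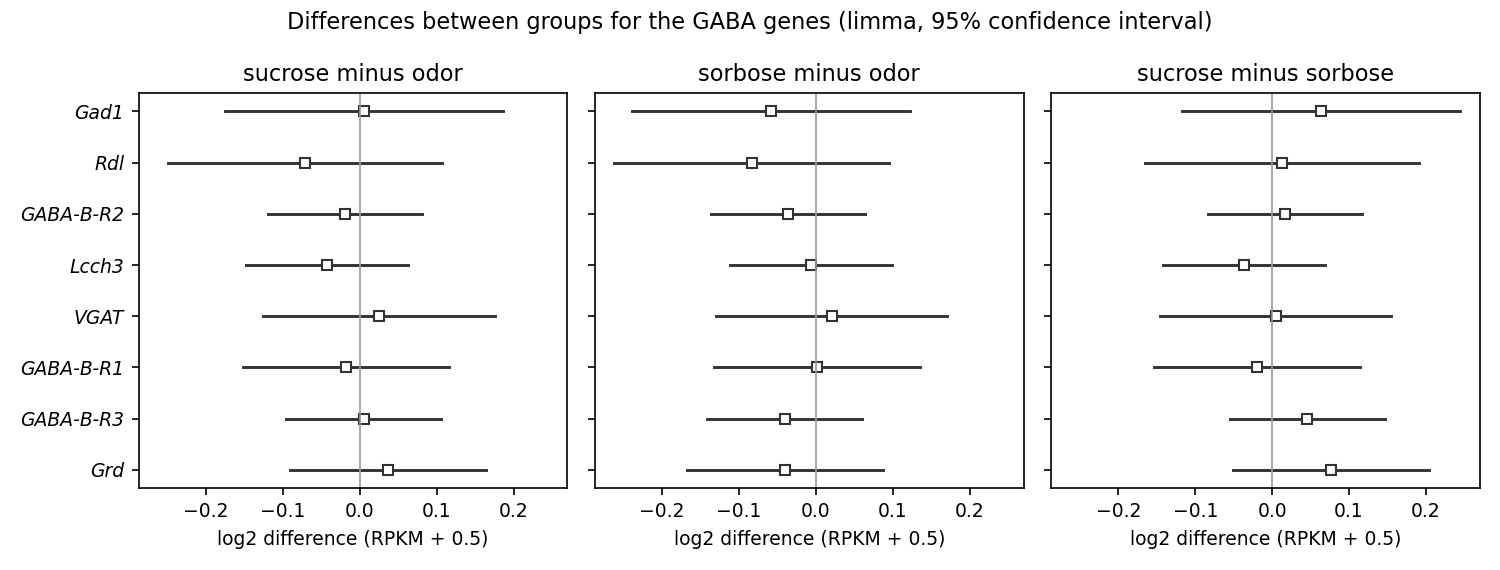
Log2 differences of the 8 GABA genes in the 3 comparisons on the log2(RPKM + 0.5) scale, one panel per comparison and genes ordered by mean RPKM. Squares are limma estimates from 18 flies and lines their 95% confidence intervals. Every interval includes 0, and the estimates lie between -0.084 (Rdl, sorbose minus odor) and 0.077 (Grd, sucrose minus sorbose).

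Since RPKM is scaled for gene length, levels can be set side by side. By the mean over 18 flies the order was Gad1 (158.0 RPKM), Rdl (59.6), GABA-B-R2 (39.4), Lcch3 (29.5), VGAT (27.3), GABA-B-R1 (14.9), GABA-B-R3 (9.79) and Grd (8.14). Each gene was above the next in 18 of 18 flies, except that Lcch3 was above VGAT in 17 of 18, with a ratio of 0.986 to 1.22. Over all flies the ranges of 2 neighbouring pairs overlapped, Lcch3 (27.1 to 34.5 RPKM) with VGAT (23.2 to 33.4) and GABA-B-R3 (8.88 to 10.6) with Grd (7.20 to 9.28), although within a fly Lcch3 averaged 1.08 ± 0.057 times VGAT (SD, n = 18). Among ionotropic subunits Rdl was 2.02 ± 0.151 times Lcch3 and 7.35 ± 0.840 times Grd (SD, n = 18). These ratios use the exonic length of all annotated transcripts of a gene, so a gene whose long transcripts are little used in the head is set too low. The opposite-strand overlaps given above also make ratios with Lcch3 or Grd less certain.

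For each of the 8 genes the within-group SD, 0.076 to 0.15 on the log2 scale, was larger than any difference between group means. Sorbose replicate 2 was the highest of 18 flies for Gad1, VGAT, Rdl, Lcch3, GABA-B-R1 and GABA-B-R3, and also for the mean of the 5 pan-neuronal genes. For GABA-B-R2 it ranked 2 of 18. Sucrose replicate 3 was the lowest fly for Rdl, Lcch3 and GABA-B-R1 and ranked last, 18 of 18, for the pan-neuronal mean. This fly had a fat body sum of 23400 RPKM, the highest of all flies, while sorbose replicate 2 had the lowest at 2067. That sum is mostly yolk protein RPKM, so it need not follow the amount of fat body. Other tissue sums did not contrast in this way. Summed muscle RPKM was 2169 in sucrose replicate 3 and 2204 in sorbose replicate 2, above all other flies, and the photoreceptor sums were 14190 and 13377. Fewer neurons in a sample and less neuronal RNA per cell cannot be told apart in whole heads, and the part of other tissues in these values was not tested.

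**Figure D3:**
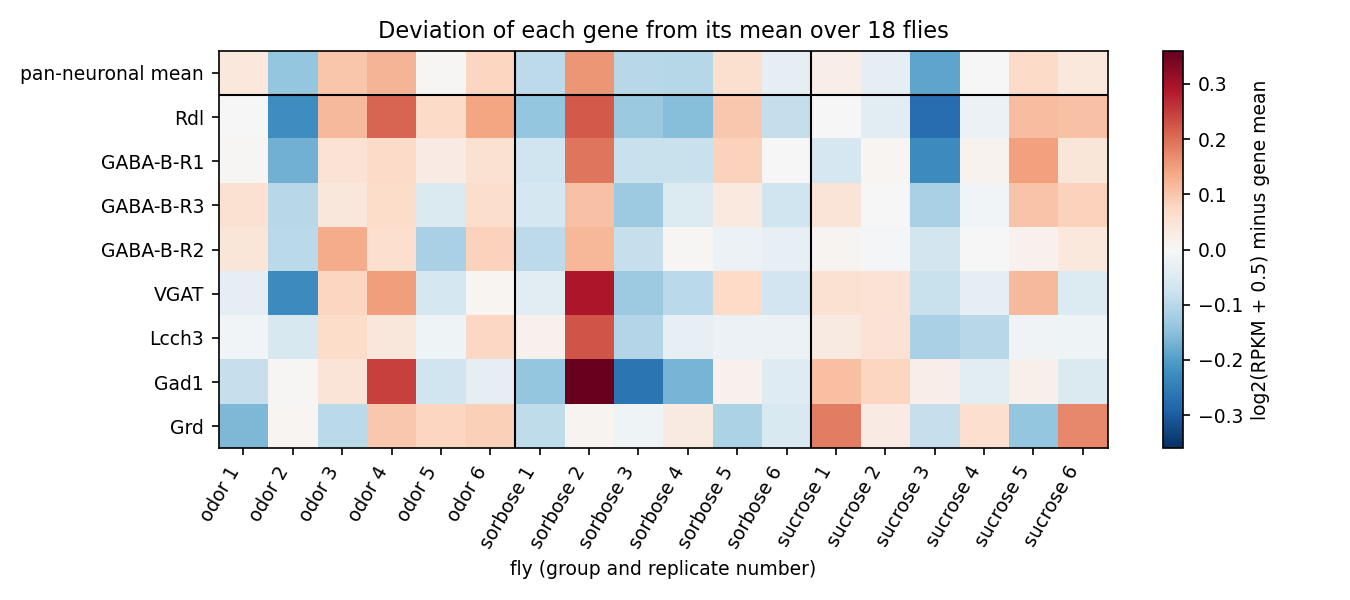
Deviation of each GABA gene, and of the mean of 5 pan-neuronal genes in the top row, from its own mean over 18 flies on the log2(RPKM + 0.5) scale. Columns are flies, and vertical lines separate odor, sorbose and sucrose. Sorbose replicate 2 ranks 1 or 2 of 18 in all rows but Grd, and sucrose replicate 3 and odor replicate 2 are low in Rdl and GABA-B-R1.

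Across the 18 flies the 7 genes other than Grd were positively correlated. Of their 21 pairs, Pearson r of log2(RPKM + 0.5) lay between 0.47 and 0.92, and 20 passed a permutation test at an adjusted p under 0.05 over all 28 pairs of the 8 genes. The pair at the top was Rdl with GABA-B-R1 (r = 0.92, Spearman rho = 0.93, permutation p = 1e-05, the smallest that 100000 permutations can give, adjusted p = 0.00028). Without the 2 flies farthest from the median of Rdl its r was 0.86, and it was 0.97 within odor, 0.99 within sorbose and 0.92 within sucrose flies. The 1 pair that missed the threshold was Gad1 with GABA-B-R1 (r = 0.47, rho = 0.46, permutation p = 0.0488, adjusted p = 0.065), with r = 0.96 in sorbose but -0.23 in sucrose flies. Among the 20 pairs that passed, 5 fell to an r under 0.5 without the 2 flies farthest from the median of the first gene, so that these relations rest on those flies. They were Gad1 with Rdl (0.56 to 0.28), GABA-B-R2 (0.55 to 0.34), Lcch3 (0.70 to 0.40) and GABA-B-R3 (0.58 to 0.45), and Lcch3 with GABA-B-R1 (0.67 to 0.37). Within sucrose flies r of Gad1 was -0.21 with Rdl, -0.22 with GABA-B-R2 and -0.088 with GABA-B-R3. All values of a fly come from one library and one scaling, which genes share. The share of such pairs among all tested genes was not computed, so the count cannot be read as particular to GABA genes.

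Grd stood outside this pattern. In its 7 pairs with the other genes r lay between -0.010 and 0.21 (permutation adjusted p of 0.505 or more), and it lay between -0.016 and 0.22 when deviations from the group means were used. The within-group SD of Grd was 0.10 on the log2 scale, beside 0.082 for Lcch3 and 0.15 for Rdl, so it was not the least variable gene. Sucrose replicates 1 and 6 ranked 1 and 2 of 18 for Grd, and odor replicate 1 and sucrose replicate 5 ranked 18 and 17. The last of these, sucrose replicate 5, ranked 2 of 18 for GABA-B-R1 and 3 of 18 for VGAT.

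The same 7 genes followed the pan-neuronal mean, and they did so unequally. Pearson r with it was 0.98 for Rdl (rho = 0.98), 0.92 for GABA-B-R1 (rho = 0.92) and 0.90 for GABA-B-R3 (rho = 0.87), each with a permutation p of 1e-05 and an adjusted p of 2.67e-05 over 8 genes. For Rdl it was 0.96 without the 2 flies farthest from the median pan-neuronal level, and 0.96, 0.99 and 0.98 within odor, sorbose and sucrose. VGAT (r = 0.82), GABA-B-R2 (0.78) and Lcch3 (0.72) followed, with permutation adjusted p of 8e-05, 0.00016 and 0.000627. Gad1 had r = 0.60 (rho = 0.50, permutation p = 0.00745, adjusted p = 0.00851), with 0.96 in sorbose but -0.095 in sucrose flies. Without the same 2 flies, odor replicate 2 and sucrose replicate 3, r of Gad1 was 0.81. It was then 0.82 for VGAT, 0.76 for GABA-B-R2 and 0.65 for Lcch3, so the lower place of Gad1 rests on these flies. Grd had r = 0.13 (rho = 0.084, permutation p = 0.609, adjusted p = 0.609). How many of all tested genes follow the pan-neuronal mean as closely was not computed.

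**Figure D4:**
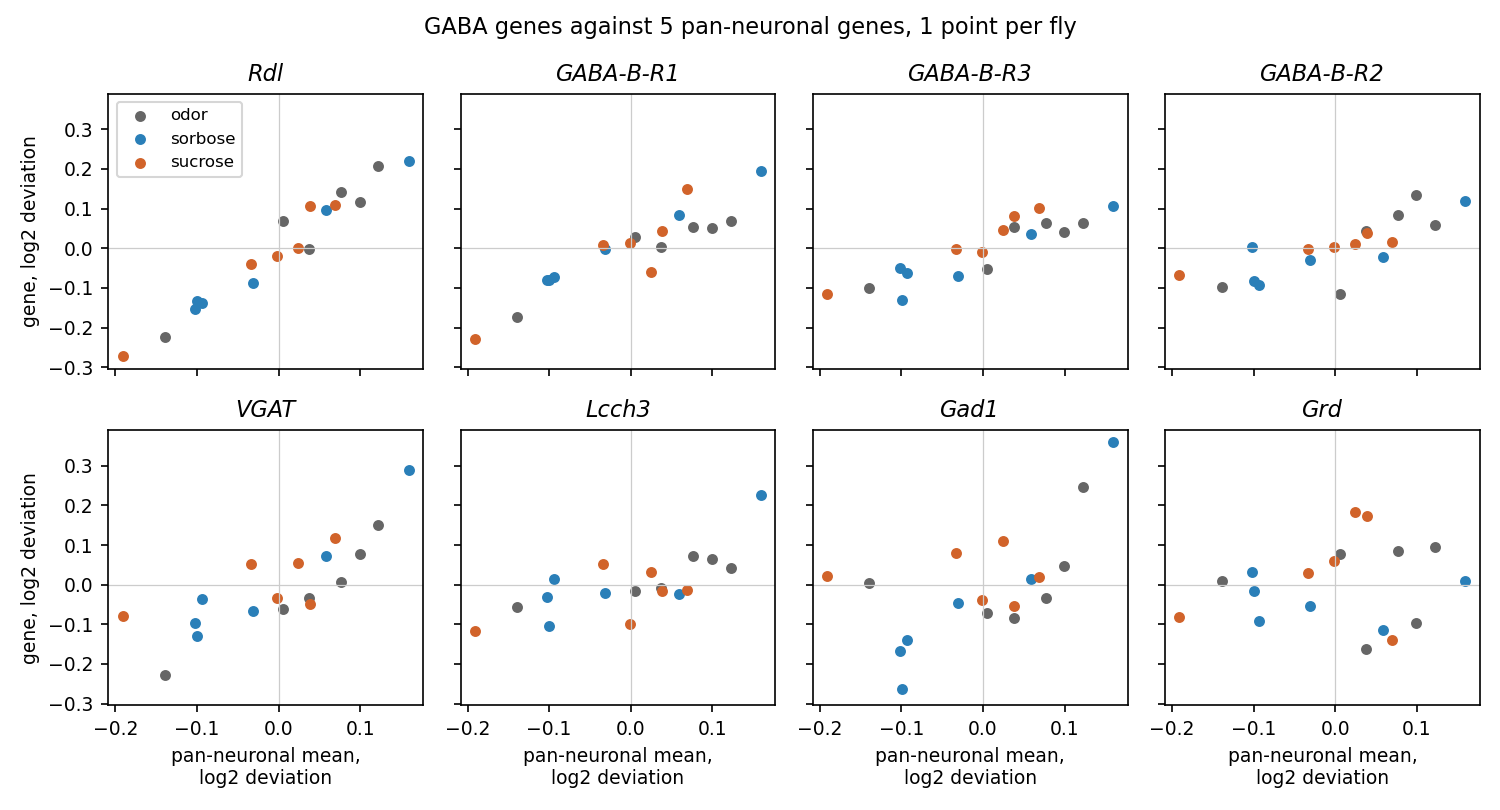
Log2 deviation of each GABA gene from its mean (y axis) against that of the mean of 5 pan-neuronal genes (x axis), 1 point per fly and 18 flies per panel, colored by group. Rdl lies close to a line (r = 0.98), Gad1 scatters more (r = 0.60), and Grd shows no slope (r = 0.13). Without odor replicate 2 and sucrose replicate 3, r of Gad1 was 0.81.

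Among the other tested genes, those that share exonic bases left out, the 2 most similar in profile to each GABA gene over 18 flies are given as a description. Gad1 was nearest to Syngr, the vesicle protein synaptogyrin (r = 0.97), and kcc, a potassium chloride cotransporter that keeps neuronal chloride low (r = 0.96). VGAT was nearest to Dap160, a scaffold of vesicle endocytosis (0.95), and CG13248 (0.93), Rdl to mmd (0.97) and the calcium sensor Frq1 (0.96). GABA-B-R1 was nearest to Teh1, an auxiliary protein of the sodium channel (0.95), and bma (0.94), and GABA-B-R2 to the channel partner unc80 (0.92) and CG9636 (0.90). GABA-B-R3 was nearest to the active zone protein brp (0.95) and the synaptic adhesion protein Nrx-1 (0.93), and Lcch3 to CG10089 (0.88) and Drep2 (0.87). For Grd the values were lower, with BomBc2 (0.73) and BomS2 (0.71), which encode Bomanins, immune peptides induced by the Toll pathway. These are the highest of some 11060 values of r, and no chance level was computed for them. As brp is also one of the 5 pan-neuronal genes, its likeness to GABA-B-R3 repeats a relation already given.

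The turnover of GABA and its precursors is shared with glia, and 2 of 9 further genes of this pathway rose in sucrose against odor, where 13.1% of all tested genes rose. Eaat1, the glial transporter that clears glutamate, averaged 72.0 ± 16.7 RPKM in odor flies and 99.3 ± 10.2 after sucrose (SD over 6 flies). The rise was 0.49 ± 0.12 on the log2 scale (limma adjusted p = 0.0090), with 6 of 6 sucrose flies above the odor mean and ranges that overlapped. The other was b (black), a decarboxylase related to Gad1 that makes beta-alanine from aspartate, which rose from 31.0 ± 3.57 to 38.2 ± 4.77 RPKM, or by 0.30 ± 0.090 on the log2 scale (limma adjusted p = 0.0220). The call for b was lost without odor replicate 1 (limma adjusted p = 0.0563) or sucrose replicate 5 (limma adjusted p = 0.0521). Between sucrose and sorbose 0 of the 9 were called (0.00904% of all tested genes), and between sorbose and odor 0 of 9 (24.4%). In sorbose flies Eaat1 lay 0.33 ± 0.12 and b 0.23 ± 0.090 above odor (log2, limma adjusted p = 0.0639 and 0.0647). Of these flies 6 of 6 were above the odor mean for Eaat1 and 5 of 6 for b. The median log2 difference of the 9 genes was 0.18 between sucrose and odor, beside -0.0012 for all tested genes.

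Gat, the plasma membrane transporter that takes GABA up into glia, was not called and was picked out after its values were seen. Odor flies had 38.7 to 72.3 RPKM with a median of 51.8, sorbose flies 58.5 to 91.1 with a median of 66.2, and sucrose flies 60.2 to 82.2 with a median of 67.5. In both trained groups 6 of 6 flies lay above the odor mean, although some odor flies reached the trained range. The log2 difference from odor was 0.38 ± 0.14 in sucrose (limma adjusted p = 0.0547) and 0.37 ± 0.14 in sorbose flies (limma adjusted p = 0.0685). Without odor replicate 4 the values were 0.47 (limma adjusted p = 0.0142) and 0.46 (limma adjusted p = 0.0189), and without odor replicate 5 they were 0.46 and 0.44 (limma adjusted p = 0.0224 and 0.0289). Sucrose against odor also passed without sorbose replicate 2 (limma adjusted p = 0.0399) or sucrose replicate 6 (limma adjusted p = 0.0483). Of 18 fits that each left out a fly, Gat was not called in 14 for sucrose and in 16 for sorbose against odor. The limma adjusted p reached 0.137 and 0.168 in these fits. Odor replicates 4 and 5 had the highest Gat values of the odor flies (72.3 and 68.2 RPKM), so leaving out either lowers the odor mean. The enzymes that break GABA down, the transaminase Gabat and the succinic semialdehyde dehydrogenase Ssadh, were not called, at 0.19 ± 0.095 and 0.073 ± 0.069 for sucrose minus odor (log2, limma adjusted p = 0.16 and 0.471).

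The chloride gradient on which GABA channels depend is set by cotransporters, of which 2 of 3 rose in both trained groups, beside 13.1% of all tested genes in sucrose and 12.2% in sorbose against odor. Ncc69, a sodium potassium chloride cotransporter, had 13.4 to 20.1 RPKM in odor with a median of 17.5. It had 19.7 to 22.7 in sorbose flies with a median of 21.4, and 20.8 to 25.0 in sucrose flies with a median of 23.3. Every sucrose fly was above every odor fly, a separation found in 9.45% of all tested genes (7.17% between sorbose and odor). The sorbose and odor ranges met only at their ends. The log2 difference from odor was 0.45 ± 0.077 in sucrose (limma adjusted p = 0.000839) and 0.33 ± 0.077 in sorbose flies (limma adjusted p = 0.00768). NKCC, of the same family, had 7.22 to 13.5 RPKM in odor flies, 12.9 to 18.7 after sorbose and 14.6 to 19.9 after sucrose, with medians of 10.3, 16.7 and 16.96. It differed from odor by 0.73 ± 0.13 in sucrose and by 0.64 ± 0.13 in sorbose flies (limma adjusted p = 0.00116 and 0.00411). The third, kcc, had log2 differences of 0.015 ± 0.10 and -0.028 ± 0.10 (limma adjusted p = 0.935 and 0.875). Between the sugars 0 of the 3 were called (0.00904% of all tested genes).

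Among other anion channels of the Cys-loop family 6 of 8 were tested, and 2 rose in sucrose against odor (13.1% of all tested genes). In sorbose against odor 0 were called (24.4% of all tested genes). HisCl1, a histamine-gated chloride channel, had 9.34 to 11.4 RPKM in odor and 11.6 to 12.2 in sucrose flies, and rose by 0.16 ± 0.043 (log2, limma adjusted p = 0.0106). These ranges did not overlap, as was found in 9.45% of all tested genes. For alka, a chloride channel of taste neurons that senses alkaline pH, the ranges were 4.20 to 5.65 and 5.52 to 6.31 RPKM, and the rise was 0.26 ± 0.065 (log2, limma adjusted p = 0.00792). In sorbose flies HisCl1 and alka lay at 0.12 and 0.13 above odor (log2, limma adjusted p = 0.0522 and 0.153), with 6 of 6 flies above the odor mean for both, and neither was called between the sugars (limma adjusted p = 0.812 and 0.541). Of 5 partners of metabotropic inhibition, G protein subunits and inwardly rectifying potassium channels, 1 rose in sucrose against odor (13.1% of all tested genes), namely Irk2. It went from 39.2 ± 7.72 RPKM in odor flies to 52.2 ± 5.52 after sucrose (SD over 6 flies), or by 0.43 ± 0.11 on the log2 scale (limma adjusted p = 0.0109). In sorbose flies Irk2 was at 0.29 ± 0.11 (log2, limma adjusted p = 0.0662), with 6 of 6 flies above the odor mean, and it was not called between the sugars (limma adjusted p = 0.763). Markers of other transmitters had log2 differences close to 0. For sucrose minus odor they were -0.026 for ChAT of cholinergic neurons, -0.0052 for VGlut of glutamatergic and 0.014 for Vmat of aminergic neurons. Of these 3 genes 0 were called in any comparison. The shares of all tested genes were 27.5% for sucrose minus odor, 24.4% for sorbose minus odor and 0.00904% for sucrose minus sorbose.

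The differences of Eaat1, Ncc69, NKCC and Gat came beside differences in glial markers. Of 6 glial genes 3 rose and 1 fell in sucrose against odor (13.1% and 14.4% of all tested genes), among them wrapper, a surface protein of axon-ensheathing glia, by 1.41 ± 0.29 (log2, limma adjusted p = 0.00271), and Eaat1, which is also in this list. Also called were repo, the defining transcription factor of glia, at 0.16 ± 0.058 (limma adjusted p = 0.0485), and moody, a receptor of the blood-brain barrier, at -0.22 ± 0.079 (limma adjusted p = 0.0472). Their calls were lost in 12 and 14 of 18 fits without 1 fly. In sorbose against odor 1 of the 6 rose, wrapper, and 1 fell, moody, beside 12.2% of all tested genes in each direction. The difference of moody was -0.26 ± 0.079 (log2, limma adjusted p = 0.0275), a call lost in 5 of 18 fits without 1 fly. Gs2 and alrm, also in this list, were not called in sucrose against odor. The summed RPKM of the 6 genes ran from 672.8 to 799.9 for odor, from 660.1 to 821.9 for sorbose and from 671.7 to 911.2 for sucrose. Most of it is Gs2, with a mean of 561.7 RPKM in odor flies beside 742.0 for the sum. The sum therefore says little about the other genes of the list. The lowest single value was 2.17 RPKM, for wrapper in an odor fly.

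The odor flies were uneven in these genes, a feature picked out after the values were seen. Odor replicates 1 and 6 were the 2 lowest of all 18 flies for each of Gat, Eaat1, Ncc69, NKCC, Irk2 and wrapper. Gat had 38.7 and 42.0 RPKM in these flies, 52.6 and 50.9 in odor replicates 2 and 3, and 72.3 and 68.2 in odor replicates 4 and 5. The last pair of flies lay within the trained range for Gat and Eaat1, but below every sorbose and sucrose fly for wrapper, at 11.7 and 11.2 RPKM against 12.5 or more. Ranges apart from that of odor were found in 9.45% of all tested genes for sucrose and 7.17% for sorbose. The pan-neuronal mean of the same flies did not follow this order, and ranked 8 and 4 of 18 in odor replicates 1 and 6. Of the GABA genes, Rdl ranked 10 and 3 of 18 in these flies, but Gad1 ranked 15 and 10 and Grd 18 and 4. Leaving out either of these flies kept the calls for Eaat1, Ncc69, NKCC and Irk2 between sucrose and odor.

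Markers of other tissues also differed between sucrose and odor. Of 5 fat body genes 3 rose, against 13.1% of all tested genes: apolpp, the lipid carrier precursor, by 3.35 ± 0.57 (log2, limma adjusted p = 0.000763), and the yolk protein genes Yp1 and Yp2 by 1.32 ± 0.40 and 1.54 ± 0.41 (limma adjusted p = 0.0221 and 0.0107). The call for Yp1 was lost in 3 of 18 fits without 1 fly (without odor replicate 1, odor replicate 6 or sucrose replicate 3, limma adjusted p of up to 0.0559). Among 3 hemocyte genes Hml rose by 1.11 ± 0.30 and NimC1 fell by 0.40 on the log2 scale (limma adjusted p = 0.0120 and 0.00643). These genes went in opposite directions, beside 13.1% of all tested genes that rose and 14.4% that fell. Among 4 muscle genes Act88F rose by 0.63 ± 0.22 (limma adjusted p = 0.0410, 13.1% of all tested genes), a call lost in 6 of 18 fits without 1 fly. In sorbose against odor apolpp, Hml and Act88F rose and NimC1 fell, beside 12.2% of all tested genes in each direction. There the call for Act88F was lost in 2 of 18 such fits. Summed muscle RPKM ran from 709.5 to 1996 for odor and from 944.6 to 2169 for sucrose. The part of glial content and of other tissues in the differences of Eaat1, Ncc69, NKCC, Irk2, HisCl1, alka and b was not tested.

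**Figure D5:**
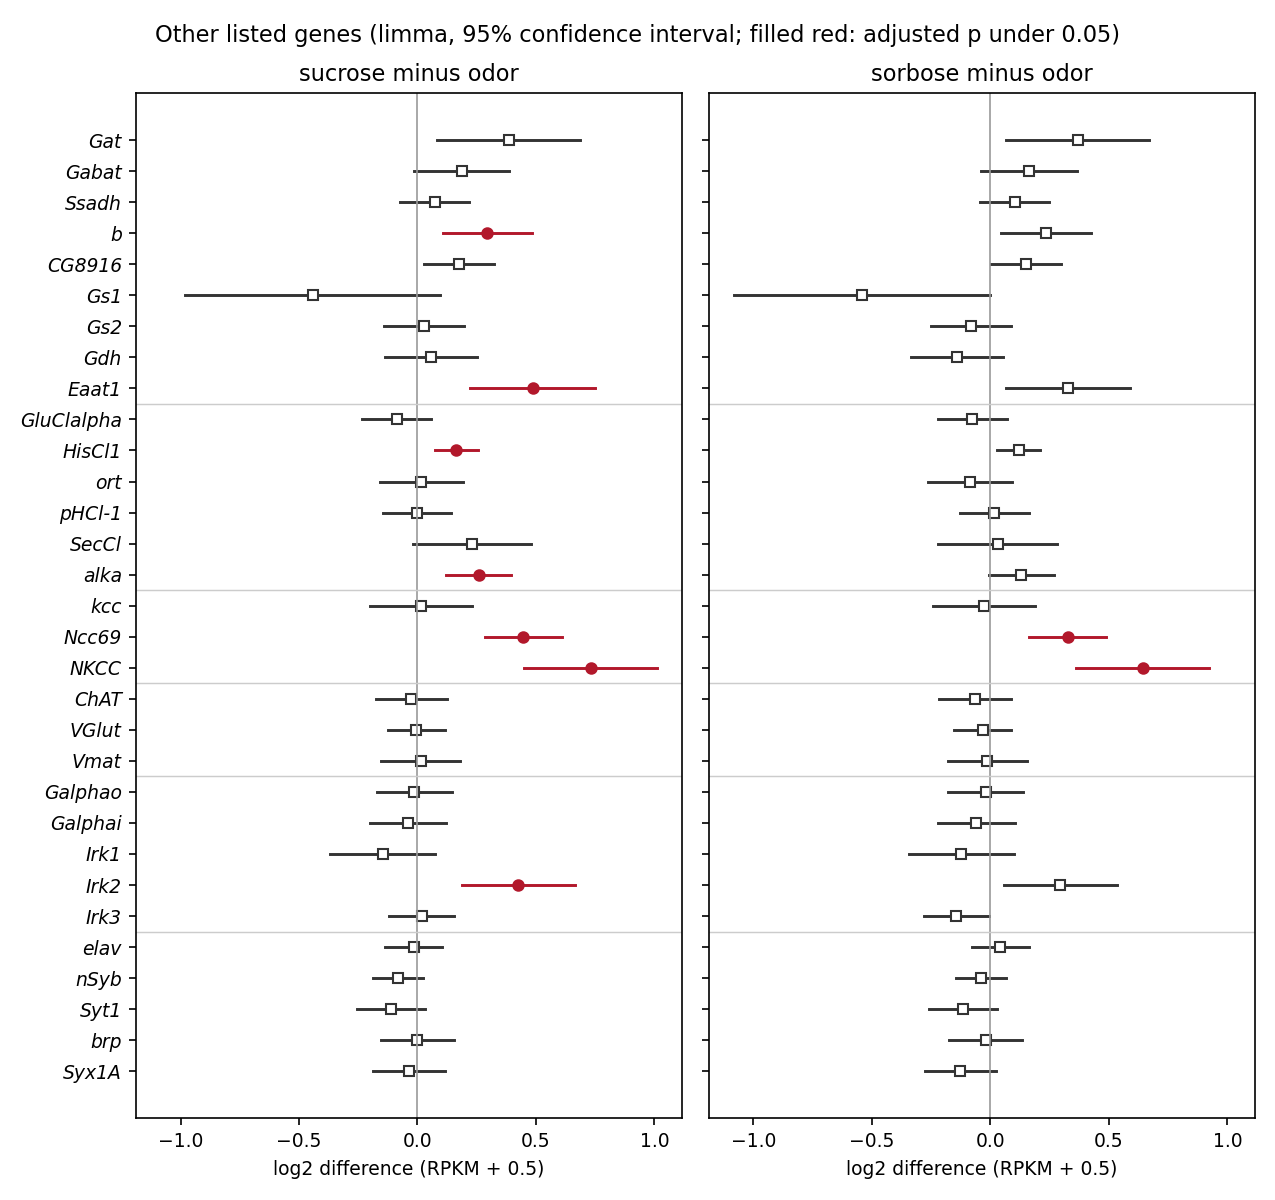
Log2 differences on the log2(RPKM + 0.5) scale for sucrose minus odor (left) and sorbose minus odor (right), with lines for the 95% confidence interval. From the top, blocks hold the other GABA pathway genes, other Cys-loop anion channels, chloride cotransporters, markers of other transmitters, partners of metabotropic inhibition and pan-neuronal genes. Filled red circles have a limma adjusted p under 0.05, 7 genes on the left and 2 (Ncc69 and NKCC) on the right.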

How the data were processed

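Non-stranded poly-A libraries of single heads were sequenced. The authors deposited RPKM values, 1 column per fly. The authors' processing notes name dm6, TopHat2 2.0.13 and edgeR 3.18.1, and the authors' methods add Ensembl gene models. Another passage of the methods names an older aligner, dm3 and cuffdiff. Of 17559 genes, 17253 were named through the dm6 annotation (Ensembl release 115).

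Reads were recovered from RPKM steps and exonic length. Of all values 98.2% came out whole (within 0.02 reads or a relative 1e-05), those of the 8 GABA genes among them. RPKM are not counts, so log2(RPKM + 0.5) was fitted with limma 3.58.1 in R 4.3.3 (one model of 3 groups, trended eBayes, two-sided) for the 11062 genes whose mean RPKM was 0.5 or more, with Benjamini-Hochberg adjustment over all of them within each comparison. Differences of low genes are understated on this scale. Correlations used 100000 permutations of flies.

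The genes and lists were chosen with earlier results of these data known. All 8 genes are named. Of the other lists genes called in a comparison were named, and for each GABA gene the 2 genes of highest Pearson r. VAChT and wupA were not matched and not analysed here. The labels give no batch and name no experiment, although in kind these groups match the study's experiment with sorbose. Flies of a group are separate animals, and no 2 agreed within sampling noise (chi-square per degree of freedom at least 27.6). Alternatives were other pseudocounts, scalings, filters, weights, limma-voom on recovered reads, a replicate block, a pan-neuronal covariate, 2-group fits and leaving out each fly.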

Additional observations from a re-analysis of the deposited data

Results flagged for a closer look

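For each of the 8 genes, the highest and lowest fly of a group were set against the other flies of that group, which makes 24 cases, and chance sets a fly apart in about 1 in 20. Sorbose replicate 2 stood above the other sorbose flies for Lcch3, with 34.49 RPKM against 27.3 to 29.7. Odor replicate 2 stood below the other odor flies for GABA-B-R1, with 13.1 RPKM against 14.9 to 15.6. The pan-neuronal mean was the highest of 18 flies in the former and ranked 17 in the latter.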

How the results depend on the processing

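The count of GABA genes called was 0 in each comparison under all 29 alternatives, with a lowest adjusted p of 0.118 for a single gene (limma). It was 0 to 0 over the 18 fits without 1 fly. Of 696 single values of these genes 644 kept their sign and 52 changed it, none of them larger than 0.039 in size on the log2 scale. With quantile normalization the sign changed for Grd (-0.0029), GABA-B-R2 (0.027) and GABA-B-R3 (-0.019) in sucrose minus odor, and for Gad1 (0.039), Lcch3 (0.021) and GABA-B-R1 (-0.0057) in sorbose minus odor. With the pan-neuronal covariate it changed for Rdl (0.0024), GABA-B-R1 (0.034) and GABA-B-R2 (0.011) in sucrose minus odor and Lcch3 (0.025) in sorbose minus odor. With sample quality weights it changed for VGAT (-0.035) and GABA-B-R1 (-0.022) in sorbose minus odor and GABA-B-R1 (0.0037) in sucrose minus sorbose. The cause was not tested. Without 1 fly, sucrose minus odor ran from -0.015 to 0.051 for Gad1, -0.017 to 0.058 for VGAT, -0.054 to 0.025 for GABA-B-R1, -0.046 to 0.0044 for GABA-B-R2 and -0.018 to 0.032 for GABA-B-R3. Larger moves that kept their sign were those of Gad1, from -0.14 to -0.013 in sorbose minus odor and 0.019 to 0.14 in sucrose minus sorbose, and Rdl, from -0.13 to -0.020 in sucrose minus odor. Sorbose minus odor ran from -0.036 to 0.054 for VGAT, -0.049 to 0.017 for Lcch3 and -0.035 to 0.020 for GABA-B-R1. Sucrose minus sorbose ran from -0.023 to 0.062 for VGAT, -0.013 to 0.064 for Rdl, -0.060 to 0.0062 for Lcch3, -0.052 to 0.023 for GABA-B-R1 and -0.035 to 0.097 for Gat.

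Replicate numbers did not pair the flies. Deviations of same-numbered flies correlated above 0.1 in 7 of 18 pairs, beside 34 of 90 pairs of flies with different numbers. In 4 of 36 comparisons of a fly with another group, the best match had the fly's own number. With the replicate block 0 GABA genes were called, and 2716, 2323 and 1 of all genes in sucrose minus odor, sorbose minus odor and sucrose minus sorbose. Over all genes sucrose minus sorbose gave 1 call, but 19 with quantile normalization, 308 with sample quality weights, 44 with the pan-neuronal covariate, 8 with only the 2 groups compared, 2 with limma-voom and up to 49 without 1 fly. Sorbose minus odor gave 1767 to 3181 without 1 fly, beside 2702. The calls for Eaat1, Ncc69, NKCC, HisCl1, alka and Irk2 held under all 29 alternatives. Gat, not called otherwise, passed for sucrose minus odor and sorbose minus odor with quantile normalization (0.45 and 0.41, limma adjusted p = 0.0192 and 0.0349) and with sample quality weights (0.39 and 0.35, limma adjusted p = 0.0141 and 0.0255), beside the fits without 1 fly given above.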
